A study of Mus musculus with 16 samples.

Results

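The genes described here encode the proteins of the cytosolic ribosome. They were chosen by name: every gene on the array whose symbol starts with Rpl or Rps followed by a digit, together with Rpsa, Rplp0, Rplp1 and Rplp2, without the Rps6k kinases and the genes marked as pseudogenes in their symbol. This gave 88 genes of 21154 with a named probe, each read from its brightest probe. Of these, 86 passed the background test on each of the 16 arrays and were tested among 14063 genes in all. By name they were 42 proteins of the large subunit, 31 of the small subunit, the 3 proteins of the stalk, and 10 paralogs or like-named genes. The rule also kept Rps4l, annotated as a transcribed pseudogene, and Rps19bp1, a nucleolar binding partner of Rps19 that is not a ribosomal protein. Rpl10l and Rpl39l, copies of Rpl10 and Rpl39 known for expression in the testis, did not pass the filter, being well above background on 1 and 10 arrays.

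RNA came from the ventricles of 16 female mice in 4 groups of 4 independent animals: lactating Npr1-/- mice, lactating Npr1+/+ mice, nulliparous Npr1-/- mice and nulliparous Npr1+/+ mice. Lactating mice had nursed for 2 weeks, and nulliparous mice had never given birth. Npr1 encodes the guanylyl cyclase receptor for the cardiac natriuretic peptides, and the study asked how the heart responds to lactation without it. Strain, age and the construction of the Npr1 deletion are not given in the sources used here.

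The cytosolic ribosome is built from ribosomal RNA and a set of proteins shared by all cells, and these proteins are among the most abundant products of any cell. In the heart, growth of the muscle cells goes along with more ribosomes, driven by more ribosomal RNA transcription and by signalling through mTOR and Myc. Most mammalian ribosomal protein mRNAs start with a C followed by a run of pyrimidines, the terminal oligopyrimidine tract, through which mTOR controls their translation, so that the amount of their protein can change without the amount of mRNA.

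A start sequence could be matched by symbol for 67 of the 88 genes in the RefSeq promoter table (GRCm38.p6). The run sought was a C followed by at least 4 bases that are each C or T, on the gene's own strand. It had to begin within 5 bases of an annotated start. Its C also had to follow a base other than C or T, or be the start base itself. Such a run was present at any listed start of the gene in 24 of the 67 (35.8%) and in 15.6% of 27025 genes. At the start base itself it was present in 14 (20.9%) and in 3.01% of all genes. The windows shown run from 15 bases before to 15 bases after the start, with the run in capitals. The first 5 belong to genes that rose in lactating hearts of both genotypes, the next 4 to genes that fell in both, and the last to a gene called in neither.
Rpl15 (chr14:18270972-18271001, minus strand): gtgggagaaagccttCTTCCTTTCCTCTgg
Rpl28 (chr7:4792950-4792979, plus strand): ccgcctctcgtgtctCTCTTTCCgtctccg
Rps27l (chr9:66946071-66946100, plus strand): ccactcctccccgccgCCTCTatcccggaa
Rps7 (chr12:28635939-28635968, minus strand): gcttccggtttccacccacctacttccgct
Rps19 (chr7:24884577-24884606, plus strand): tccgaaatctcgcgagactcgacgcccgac
Rpl14 (chr9:120571502-120571531, plus strand): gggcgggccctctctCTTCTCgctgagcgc
Rpl38 (chr11:114668565-114668594, plus strand): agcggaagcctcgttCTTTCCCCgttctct
Rps21 (chr2:180257364-180257393, plus strand): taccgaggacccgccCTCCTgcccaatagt
Rpsa (chr9:120127751-120127780, plus strand): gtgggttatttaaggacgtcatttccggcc
Rps6 (chr4:86857353-86857382, minus strand): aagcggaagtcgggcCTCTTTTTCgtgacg

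The run was found among genes of every lactation response. It was present in 4 of 10 genes that rose in both genotypes, in 5 of 8 that fell in both and in 12 of 33 that were called in neither. Rps7 and Rps19 rose with no such run at the listed start, and Rpl14 and Rpl38 fell with one at the start base. A window without capitals says only that no run meeting these rules begins within 5 bases of the listed start. It may still hold a run of C and T that begins outside these rules.

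Levels are log2 signals less the array's 75th percentile over all probes, so a change is relative to that percentile. That percentile was 278 to 347 signal units on the lactating arrays and 165 to 221 on the nulliparous ones, except nulliparous Npr1-/- replicate 4 at 284. That array also correlated more closely with the lactating arrays (mean r = 0.986 over genes) than with the other nulliparous ones (0.975). For the genes described array by array, the Npr1-/- change is also given without it. The Npr1 probe read -4.26, -3.84, -3.63 and -4.04 in lactating Npr1-/-, -4.68, -3.71, -3.53 and -3.93 in lactating Npr1+/+, -3.71, -3.93, -4.15 and -3.87 in nulliparous Npr1-/- and -4.23, -3.62, -4.11 and -4.47 in nulliparous Npr1+/+ hearts, and all groups overlapped. It was well above background on only 9 of 16 arrays, was not tested, and may lie outside the deleted part, so it checks neither genotype label. Each group occupied 1 column of both slides, so that column and group cannot be told apart. All 8 ventricular muscle markers passed the background test on each of the 16 arrays, with a summed signal, in multiples of the 75th percentile, of 6000 to 6830 in lactating Npr1-/-, 6950 to 7490 in lactating Npr1+/+, 7320 to 9850 in nulliparous Npr1-/- and 7650 to 9170 in nulliparous Npr1+/+ hearts. All 5 macrophage markers rose in lactation in both genotypes; their summed signal was 38.6 to 45.9 in lactating Npr1-/-, 35.2 to 41.3 in lactating Npr1+/+, 16.8 to 32.1 in nulliparous Npr1-/- and 18.6 to 22.2 in nulliparous Npr1+/+ hearts. Of the muscle markers, 2 were called higher and 6 lower in lactating Npr1-/- hearts, and 2 higher and 3 lower in lactating Npr1+/+ hearts. Of 4 markers of dividing cells, 4 rose in Npr1-/- and 3 in Npr1+/+ hearts, with sums of 3.29 to 8.19 in lactating Npr1-/-, 2.17 to 6.02 in lactating Npr1+/+, 0.805 to 3.23 in nulliparous Npr1-/- and 1.17 to 1.97 in nulliparous Npr1+/+ hearts. Red cell markers summed to 403 to 553, 370 to 484, 255 to 306 and 243 to 310 in lactating Npr1-/-, lactating Npr1+/+, nulliparous Npr1-/- and nulliparous Npr1+/+ hearts. The part of these cells in the results that follow was not tested. In tissue RNA, more cells of a type and more RNA per cell cannot be told apart.

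Ribosomal protein mRNAs moved in both directions in the lactating heart, on the reported scale by less than 2-fold for the brightest probe of each gene. In Npr1-/- hearts 13 of the 86 genes were higher and 25 lower in lactating than in nulliparous mice (limma, Benjamini-Hochberg adjusted p under 0.05 over all 14063 genes), which is 44.2% of them against 44.1% of all genes called. The background by direction was 25.5% of all genes called higher and 18.6% called lower. In Npr1+/+ hearts 18 were higher and 10 lower, 32.6% of them against 50.3% of all genes called, with 31.8% of all genes called higher and 18.5% lower. The median log2 change was -0.14 in Npr1-/- hearts, beside 0.06 over all genes, and -0.01 in Npr1+/+ hearts, beside 0.10 over all genes. Single genes ran from -0.62 to 0.69 in Npr1-/- and from -0.58 to 0.97 in Npr1+/+ hearts. The lower and upper quartiles were -0.25 and 0.02 in Npr1-/- and -0.14 and 0.20 in Npr1+/+ hearts.

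The balance of higher and lower calls depended on how arrays were brought to 1 scale. In Npr1-/- hearts it was 13 higher and 25 lower as reported, 16 and 11 after normexp background correction, 15 and 18 after quantile normalization and 18 and 3 with each array centred on its median. In Npr1+/+ hearts it was 18 and 10, 26 and 3, 18 and 23, and 33 and 1 under the same processings. The higher share of these calls was 34.2, 59.3, 45.5 and 85.7% in Npr1-/- and 64.3, 89.7, 43.9 and 97.1% in Npr1+/+ hearts. Beside it, the higher share of all genes called was 57.9, 54.2, 58.6 and 79.2%, and 63.2, 59.4, 58.7 and 80.3%. Of all genes, 44.1 to 48% were called in Npr1-/- and 50.3 to 53.6% in Npr1+/+ hearts. Among the processings, median centring moved the median of all genes by over 0.1, to 0.24 in Npr1-/- and 0.28 in Npr1+/+ hearts. Set against the median of all genes, the ribosomal protein median differed by -0.20, -0.04, -0.14 and -0.20 in Npr1-/- hearts under the 4 processings; in Npr1+/+ hearts the difference was -0.11, 0.05, -0.14 and -0.11, so its sign turned with normexp. No gene called on the reported scale turned its sign under the other 3, while some called only after quantile normalization did, such as Rps18 in Npr1+/+ hearts (-0.18, against 0.10 with median centring).

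**Figure D1:**
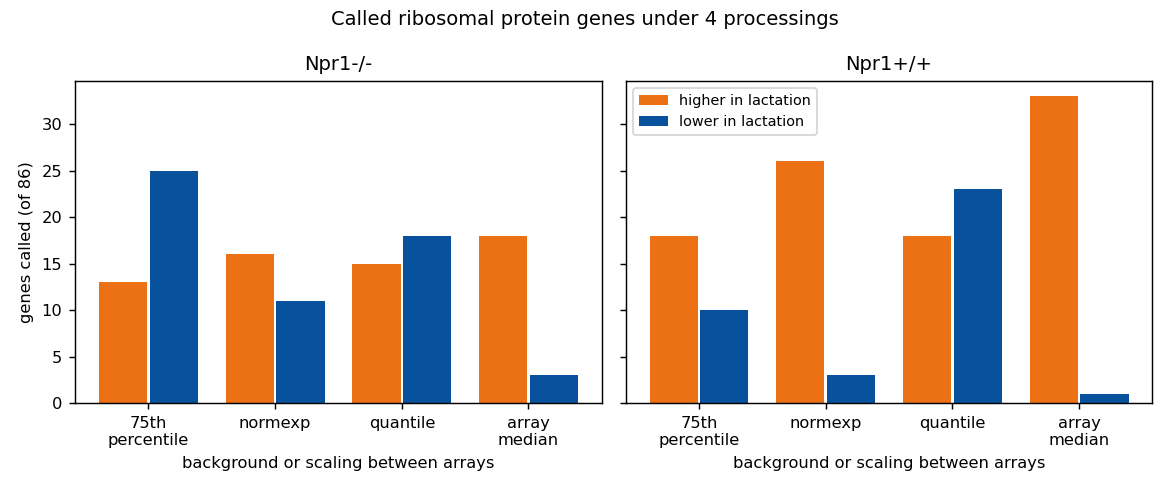
Number of the 86 ribosomal protein genes called higher (orange) and lower (blue) in lactating than in nulliparous hearts, for Npr1-/- (left) and Npr1+/+ mice (right), under 4 ways of processing the arrays. The higher calls ran from 13 to 18 in Npr1-/- and from 18 to 33 in Npr1+/+ hearts, and the lower calls from 3 to 25 and from 1 to 23. Of all genes called under the same processings, 54.2 to 79.2% were higher in Npr1-/- and 58.7 to 80.3% in Npr1+/+ hearts.

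A set of 13 genes was called higher in lactating hearts of both genotypes under all 4 processings, among them Rpl15, Rpl21, Rpl23a, Rpl28, Rpl7l1, Rps13, Rps19, Rps2, Rps27l, Rps3a1, Rps4x and Rps7, of which Rps13 was named after its values were seen. In Npr1-/- hearts 7 of these 13 calls held with the mean of the probes, where Rps13 gave 0.18, and 8 held in every fit that left out 1 array. Of the lower calls, 3 held under all 4 in Npr1-/- hearts, among them Rps23rg1 and Rpsa, and 1 in Npr1+/+ hearts, Rps23rg1. Every call had the same sign on both slides (38 of 38 in Npr1-/- and 28 of 28 in Npr1+/+ hearts). The calls were made on these same arrays, so this agreement of sign is no separate support for them. Neither this count nor that of the 13 genes was made over all genes.

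Rpl15, a large-subunit protein whose gene is mutated in some people with Diamond-Blackfan anaemia, had the largest rise of the 86 in both genotypes on the brightest probe. Its level was 7.27, 7.25, 7.22 and 7.20 in lactating Npr1-/- hearts and 6.35, 6.39, 6.33 and 7.10 in nulliparous Npr1-/- hearts. It was 7.10, 7.19, 7.27 and 7.19 in lactating Npr1+/+ hearts and 6.23, 6.30, 6.15 and 6.18 in nulliparous Npr1+/+ hearts. All lactating arrays lay above all nulliparous ones of their genotype, and nulliparous Npr1-/- replicate 4 stood within 0.2 of the lactating level. The rise was 1.61-fold in Npr1-/- hearts (log2 0.69 ± 0.14 SE, adjusted p = 0.00165, limma) and 1.96-fold in Npr1+/+ hearts (0.97 ± 0.14, adjusted p = 0.000133). Without that array the Npr1-/- difference was 0.88. With normexp and median centring the Npr1+/+ change was 1.09 and 1.16, which is over 2-fold. Its second probe gave 0.29 in Npr1-/- and 0.50 in Npr1+/+ hearts, and with the mean of the probes (0.49 and 0.74) Rpl15 no longer had the largest rise, Rpl7l1 (0.61) leading in Npr1-/- and Rps3a1 (0.98) in Npr1+/+ hearts. Within slides 1 and 2 it was 0.89 and 0.49 in Npr1-/- hearts and 0.88 and 1.07 in Npr1+/+ hearts.

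Rps7, a small-subunit protein that can bind the p53 regulator MDM2, stood at 6.09, 6.04, 6.06 and 5.95 in lactating Npr1-/- hearts against 5.39, 5.34, 5.11 and 5.91 in nulliparous ones. In Npr1+/+ hearts it stood at 6.17, 6.01, 6.08 and 6.03 in lactating and 5.41, 5.40, 5.21 and 5.19 in nulliparous mice. The groups did not overlap in either genotype. Rps7 rose 1.51-fold in Npr1-/- (adjusted p = 0.00284) and 1.71-fold in Npr1+/+ hearts (adjusted p = 0.000386, limma). Its log2 change in Npr1-/- hearts was 0.60, and 0.76 without nulliparous replicate 4.

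Rpl23a, which lies beside the exit of the tunnel for the growing peptide chain, had levels of 7.02, 7.08, 7.01 and 6.88 in lactating Npr1-/- hearts against 6.39, 6.42, 6.20 and 6.88 in nulliparous ones. In Npr1+/+ hearts the levels were 7.08, 6.99, 7.08 and 7.02 in lactating mice against 6.36, 6.31, 6.11 and 6.35 in nulliparous mice. Nulliparous Npr1-/- replicate 4 lay at the lowest lactating value, and the Npr1+/+ groups were well apart. Rpl23a rose 1.44-fold in Npr1-/- (adjusted p = 0.00311) and 1.69-fold in Npr1+/+ hearts (adjusted p = 0.000224), and its second probe gave log2 changes of 0.66 and 0.81. On the brightest probe the log2 change in Npr1-/- hearts was 0.52, and 0.66 without nulliparous replicate 4.

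Rps2, at the entrance of the mRNA channel, rose by 0.61 ± 0.16 (SE, log2) in Npr1-/- and 0.76 ± 0.16 in Npr1+/+ hearts on its brightest probe, with adjusted p-values of 0.00775 and 0.00154 (limma). Its second probe gave 0.44 and -0.35, each ± 0.38, and with the mean of the probes neither call remained (adjusted p = 0.0594 and 0.444). Rps3a1 rose by 0.34 ± 0.11 in Npr1-/- and 0.62 ± 0.11 in Npr1+/+ hearts, with adjusted p-values of 0.0257 and 0.000641. Its second probe gave -0.25 and 1.34, so the probes of Rps3a1 differed in sign in Npr1-/- hearts. The Npr1-/- call of Rps3a1 was lost with the mean of the probes (0.04) and did not hold in every fit that left out 1 array. For Rps2 the Npr1-/- change was 0.78 without nulliparous Npr1-/- replicate 4.

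Rps19, the gene most often mutated in Diamond-Blackfan anaemia, rose by 0.43 ± 0.11 in Npr1-/- and 0.56 ± 0.11 in Npr1+/+ hearts (adjusted p = 0.00674 and 0.001). Rpl28 rose by 0.36 ± 0.09 and 0.52 ± 0.09 in those genotypes (adjusted p = 0.00665 and 0.000466). Both are present as single probes, and the lactating and nulliparous arrays of Rps19 did not overlap in either genotype. Rpl21, a large-subunit protein, rose by 0.39 ± 0.14 in Npr1-/- and 0.61 ± 0.14 in Npr1+/+ hearts (adjusted p = 0.0298 and 0.0021). The Rpl21 probes are not equal measures, with mean levels of 5.89 for the brightest and -0.98 and -2.13 for the others. The Rpl21 call did not remain with the mean of its 3 probes in Npr1-/- (adjusted p = 0.373) or Npr1+/+ hearts (adjusted p = 0.155), nor in Npr1-/- hearts without nulliparous Npr1-/- replicate 2 or 3 or lactating Npr1-/- replicate 1 or 2 (adjusted p from 0.066 to 0.0896). Rps4x, the X-linked form of the small-subunit protein S4, rose by 0.43 ± 0.11 in Npr1+/+ hearts (adjusted p = 0.00554); in Npr1-/- hearts its change of 0.29 was called at an adjusted p of 0.0482, and the call was lost in 14 of the 16 fits that left out 1 array.

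**Figure D2:**
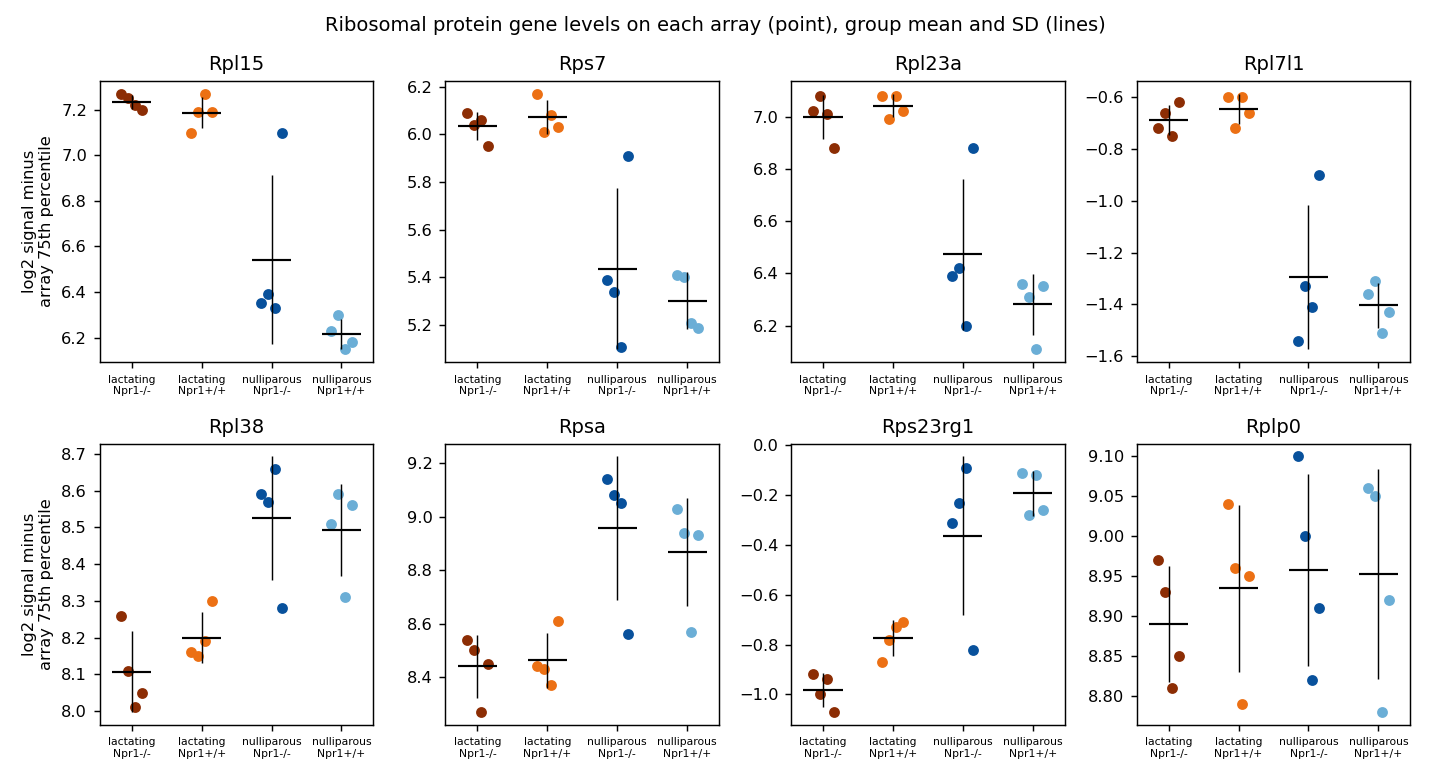
Level of 8 ribosomal protein genes on each array (points, log2 signal less the array's 75th percentile), with the group mean and SD (lines, n = 4). Rpl15, Rps7, Rpl23a and Rpl7l1 are higher in both lactating groups, Rpl38, Rpsa and Rps23rg1 are lower, Rplp0 overlaps across all groups, and 1 nulliparous Npr1-/- array lies near the lactating level for most of them.

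There were 10 genes called lower in both genotypes, among them Rpl13a, Rpl14, Rpl34, Rpl38, Rps14, Rps21, Rps23rg1 and Rpsa. Rpl38, known in mouse embryos for its part in the translation of Hox mRNAs, stood at 8.26, 8.11, 8.01 and 8.05 in lactating Npr1-/- hearts against 8.59, 8.57, 8.66 and 8.28 in nulliparous ones. In Npr1+/+ hearts it stood at 8.16, 8.15, 8.19 and 8.30 in lactating and 8.51, 8.59, 8.31 and 8.56 in nulliparous mice. The lactating arrays were below all nulliparous arrays of their genotype. The difference was -0.42 ± 0.10 (SE, log2) in Npr1-/- (adjusted p = 0.00366) and -0.29 ± 0.10 in Npr1+/+ hearts (adjusted p = 0.0193, limma), and the other probe of Rpl38 gave -0.40 and -0.26. The Npr1-/- difference was -0.50 without nulliparous Npr1-/- replicate 4. Median centring ended both calls (adjusted p = 0.0509 and 0.33), normexp ended the one in Npr1+/+ hearts (0.0932), and so did leaving out nulliparous Npr1+/+ replicate 2 (0.0571).

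Rpsa, the small-subunit protein also known as the laminin receptor precursor, had levels of 8.54, 8.50, 8.27 and 8.45 in lactating Npr1-/- hearts against 9.14, 9.08, 9.05 and 8.56 in nulliparous ones. In Npr1+/+ hearts the levels were 8.44, 8.43, 8.37 and 8.61 in lactating mice and 9.03, 8.94, 8.57 and 8.93 in nulliparous mice. The Npr1-/- groups did not overlap, while 1 lactating Npr1+/+ array lay above the lowest nulliparous one. Rpsa fell by 0.52 on the log2 scale in Npr1-/- hearts (adjusted p = 0.00593) and by 0.40 in Npr1+/+ hearts (adjusted p = 0.0195); without nulliparous Npr1-/- replicate 4 the Npr1-/- change was -0.65. Of its 4 probes, 3 gave negative changes and 1 gave 0.41 in Npr1-/- and 0.59 in Npr1+/+ hearts. These probes are not equal measures: the positive one had a mean level of 4.68, and the others 8.68, 8.2 and -2.1. With the mean of the probes the calls were lost (adjusted p = 0.183 and 0.192), and in Npr1+/+ hearts also with median centring (0.161) and without nulliparous replicate 1 (0.0598) or lactating replicate 3 (0.0519).

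Rpl14, of the large subunit, gave -0.38 in Npr1-/- and -0.32 in Npr1+/+ hearts on its brightest probe and 0.12 and 0.83 on the other, so that its direction rests on the choice of probe. These probes are not equal measures: their mean levels were 8.06 and 0.29, with SEs of 0.11 and 0.25. The brightest Rpl13a probe likewise had a mean level of 7.02, and its other probes 3.18 and 3.21. Rpl13a, a large-subunit protein that also takes part in translational silencing, gave -0.39 and -0.26 on its brightest probe, while its other 2 probes gave positive changes in both genotypes, at 0.28 and 0.38 in Npr1-/- and 0.36 and 0.38 in Npr1+/+ hearts. Rps14 (-0.38 and -0.27), Rps21 (-0.24 and -0.25) and Rpl34 (-0.24 and -0.21) fell in Npr1-/- and Npr1+/+ hearts on the reported scale, and none of their calls held under all 4 processings.

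A further 15 genes were called lower in Npr1-/- hearts and 5 called higher in Npr1+/+ hearts without a call in the other genotype. Rpl36 (-0.43 ± 0.12, adjusted p = 0.00942), Rpl8 (-0.38 ± 0.09, adjusted p = 0.00452) and Rpl37a (-0.34 ± 0.10, adjusted p = 0.0112) fell in Npr1-/- hearts; in Npr1+/+ hearts the same genes gave -0.21, -0.21 and -0.08. Without nulliparous Npr1-/- replicate 4 the Npr1-/- changes of Rpl36 and Rpl8 were -0.54 and -0.46. The other Rpl8 probe gave 0.05 in Npr1-/- and 0.20 in Npr1+/+ hearts, and with the mean of the probes the Npr1-/- call was lost (-0.16, adjusted p = 0.0864). Rps15, of the small subunit, gave -0.37 in Npr1-/- (adjusted p = 0.024) and -0.27 in Npr1+/+ hearts (adjusted p = 0.0742) on its brightest probe. Its other probe gave 0.28 and 0.45, and with the mean of the probes Rps15 (-0.04 and 0.09) was called in neither. Rpl10a rose by 0.47 in Npr1+/+ hearts (adjusted p = 0.00441) and gave 0.22 in Npr1-/- hearts (adjusted p = 0.14). None of the lower calls named here held under all 4 processings. These genes did not pass the test of the difference between the genotypes, where the smallest adjusted p of all 86 was 0.673.

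**Figure D3:**
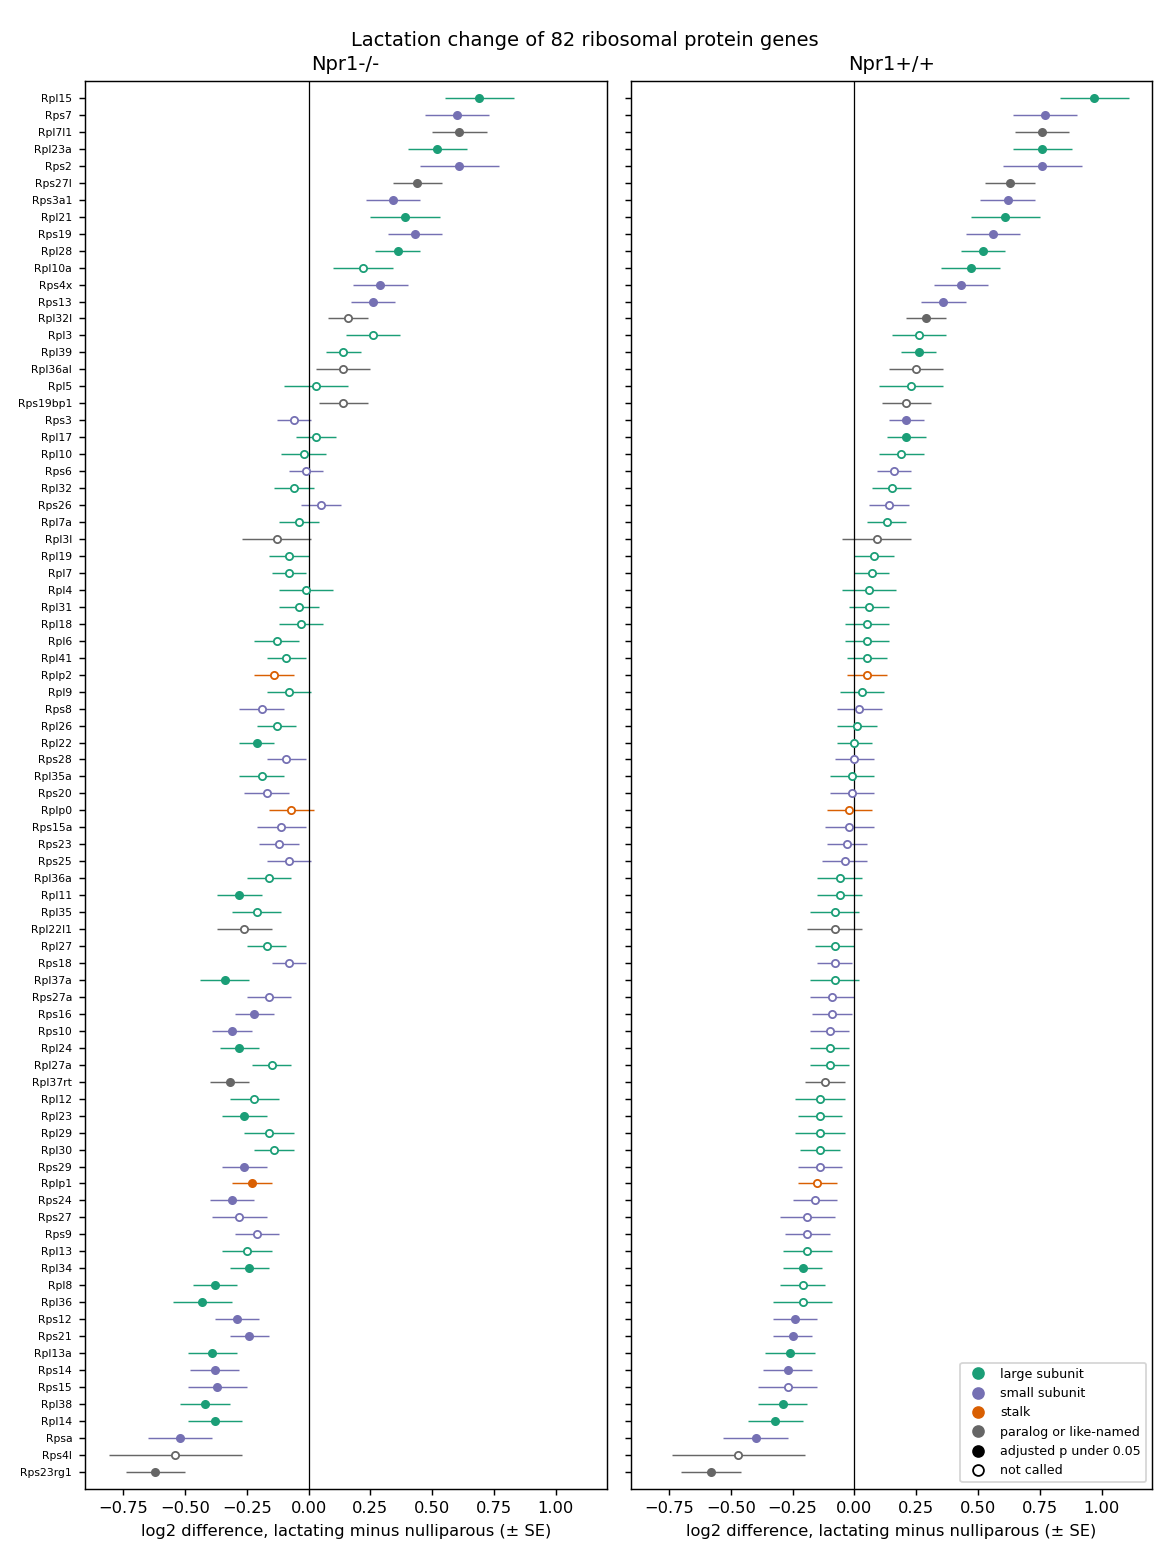
Log2 difference between lactating and nulliparous hearts (± SE) of 82 of the 86 genes in Npr1-/- (left) and Npr1+/+ mice (right), ordered by the Npr1+/+ change and coloured by class; filled points passed an adjusted p of 0.05. Rpl15 has the highest and Rps23rg1 the lowest value in both panels. The Npr1-/- value is the lower of the pair for 78 of the 82 genes drawn; with quantile normalization it was so for 46 of all 86.

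Of the paralogs, Rpl7l1 and Rps27l were called higher in both genotypes, and the difference from their better-known partners was not tested. Rpl7l1, a relative of Rpl7 that acts in large-subunit assembly, stood at -0.72, -0.66, -0.75 and -0.62 in lactating Npr1-/- hearts against -1.54, -1.33, -1.41 and -0.90 in nulliparous ones. In Npr1+/+ hearts it stood at -0.60, -0.72, -0.60 and -0.66 in lactating and -1.36, -1.31, -1.51 and -1.43 in nulliparous mice. With no overlap in either genotype, it rose 1.52-fold in Npr1-/- (adjusted p = 0.00121) and 1.69-fold in Npr1+/+ hearts (adjusted p = 0.000166), where Rpl7 itself gave -0.08 and 0.07 and was not called. Rps27l, induced by p53 in human cells, rose by 0.44 ± 0.10 and 0.63 ± 0.10 in Npr1-/- and Npr1+/+ hearts (adjusted p = 0.00284 and 0.000201), beside -0.28 and -0.19 for Rps27, which was called in neither. With normexp the change of Rpl7l1 was smaller, at 0.37 in Npr1-/- and 0.46 in Npr1+/+ hearts, and it was still called. Without nulliparous Npr1-/- replicate 4 the Npr1-/- changes were 0.74 for Rpl7l1, 0.51 for Rps27l and -0.38 for Rps27, which was then called (adjusted p = 0.004).

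Rps23rg1, an intronless retroposed copy of Rps23, stood at -0.92, -1.0, -0.94 and -1.07 in lactating Npr1-/- hearts against -0.31, -0.23, -0.09 and -0.82 in nulliparous ones. In Npr1+/+ hearts it stood at -0.87, -0.78, -0.73 and -0.71 in lactating and -0.11, -0.28, -0.12 and -0.26 in nulliparous mice. It fell 1.54-fold in Npr1-/- (adjusted p = 0.00174) and 1.49-fold in Npr1+/+ hearts (adjusted p = 0.0016), with no overlap between the groups. Rps4l gave -0.54 and -0.47 with an SE of 0.27 and was not called. Without nulliparous Npr1-/- replicate 4 the Npr1-/- change was -0.77 for Rps23rg1 and -0.71 for Rps4l, which was then called (adjusted p = 0.0447). Probes for such near-identical copies may also bind the parent mRNA, so these values are uncertain.

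Rpl3l, the form of Rpl3 found in heart and skeletal muscle, had levels of 5.89, 5.86, 5.95 and 5.46 in lactating Npr1-/- hearts against 5.89, 5.94, 5.60 and 6.24 in nulliparous ones, and of 6.07, 5.79, 5.84 and 5.67 in lactating Npr1+/+ hearts against 5.85, 5.70, 5.69 and 5.76 in nulliparous ones. The groups overlapped in both genotypes, and the difference was -0.13 (95% interval -0.42 to 0.17) in Npr1-/- and 0.09 (-0.20 to 0.39) in Npr1+/+ hearts. Rpl3 gave 0.26 in both genotypes (adjusted p = 0.0685 in Npr1-/- and 0.0659 in Npr1+/+ hearts). Neither form passed the test on the reported scale, but Rpl3 was called higher in both genotypes with normexp (0.35 in each) and with median centring (0.44 in each). Without nulliparous Npr1-/- replicate 4 the Npr1-/- difference of Rpl3l was -0.02. Rpl22 was called lower in Npr1-/- hearts (-0.21, adjusted p = 0.0273), a call lost under each of the other 3 processings (adjusted p = 0.324 with normexp, 0.102 with quantile normalization and 0.786 with median centring), and gave 0.00 in Npr1+/+ hearts. Its paralog Rpl22l1 gave -0.26 (adjusted p = 0.0709) and -0.08 (adjusted p = 0.554).

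The stalk proteins recruit the GTPases that drive translation. Rplp0, which anchors the stalk, had levels of 8.97, 8.93, 8.81 and 8.85 in lactating Npr1-/- hearts, 9.04, 8.96, 8.79 and 8.95 in lactating Npr1+/+, 9.10, 9.0, 8.82 and 8.91 in nulliparous Npr1-/- and 9.06, 9.05, 8.78 and 8.92 in nulliparous Npr1+/+ hearts. All 4 groups overlapped, and the lactation difference was -0.07 (95% interval -0.26 to 0.12) in Npr1-/- and -0.02 (-0.21 to 0.17) in Npr1+/+ hearts; without nulliparous Npr1-/- replicate 4 the Npr1-/- difference was -0.09. Rplp2 gave -0.14 and 0.05 and was not called. Rplp1 was called lower in Npr1-/- hearts (-0.23, adjusted p = 0.0315), a call lost under each of the other 3 processings (adjusted p = 0.336, 0.0992 and 0.744), and gave -0.15 in Npr1+/+ hearts. Rps6, the target of S6 kinase, gave -0.01 in Npr1-/- and 0.16 in Npr1+/+ hearts (adjusted p = 0.893 and 0.0505). In Npr1+/+ hearts Rps6 was called higher with normexp (0.25), quantile normalization (0.17) and median centring (0.34). Rps27a, made as a fusion with ubiquitin, gave -0.16 and -0.09. Rps18 and Rpl32, often used as reference genes in PCR, gave -0.08 and -0.06 in Npr1-/- and -0.08 and 0.15 in Npr1+/+ hearts on their brightest probes, while a second Rps18 probe gave 0.52 and 0.69.

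Of 51 genes with more than 1 probe kept, all probes had the same sign in 28 in Npr1-/- and in 28 in Npr1+/+ hearts; among genes called, this was 14 of 23 and 11 of 17. In Npr1+/+ hearts the probes of a gene spanned 0.23 (median, log2), and at most 1.15, for Rpl14. The brightest probe gave the lowest change of its gene's probes in 37 of 51 genes in Npr1-/- and in 30 of 51 in Npr1+/+ hearts. Across the 86 genes, the mean level of the brightest probe and the lactation change had a Spearman rho of -0.52 in Npr1-/- and -0.46 in Npr1+/+ hearts, a description across probes that share the same arrays and scale. Neither these counts nor the rho were taken over all genes, so they are not shown to be particular to ribosomal protein genes. The part of probe brightness in the lower calls was not tested. Rpl15, Rpl23a, Rps13 and Rpl38 are genes whose probes had 1 sign in both genotypes.

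**Figure D4:**
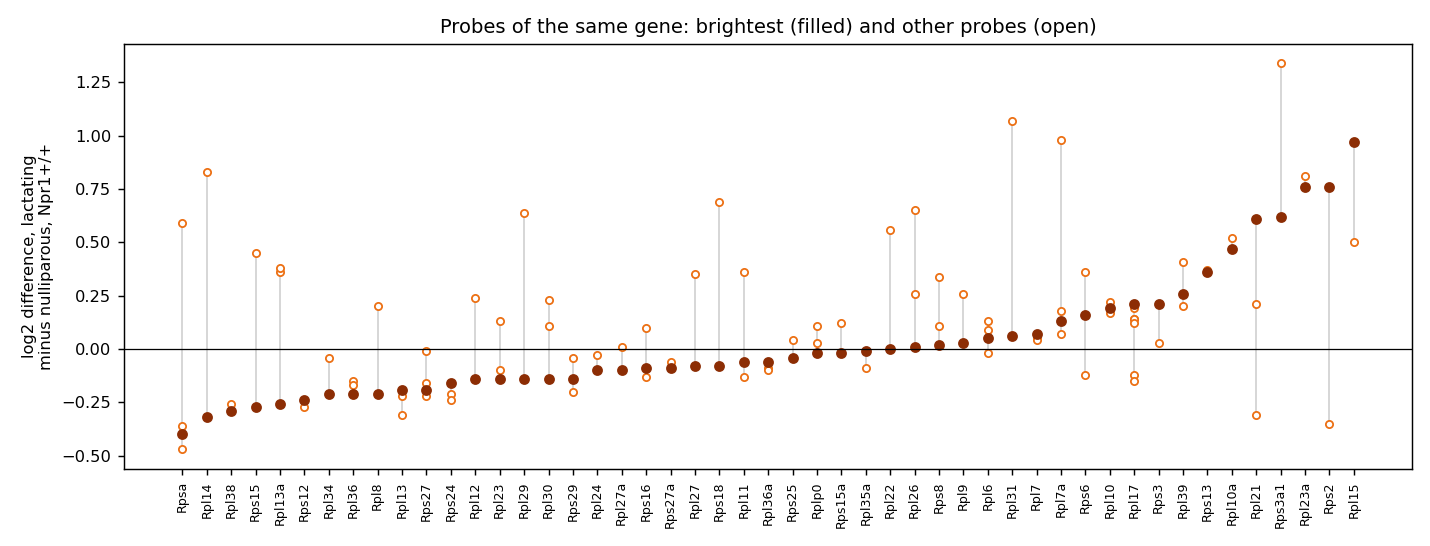
Log2 difference between lactating and nulliparous Npr1+/+ hearts for every kept probe of 49 of the 51 genes with more than 1, ordered by the brightest probe (filled); grey lines join probes of a gene. The filled point is the lowest of its gene in 28 of the 49 genes drawn, and the probes of Rpl14 are the furthest apart, at -0.32 and 0.83.

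Of the calls, 23 were shared, all in the same direction (13 higher and 10 lower), which is 60.5% of the Npr1-/- and 82.1% of the Npr1+/+ calls. Shared calls were not counted over all genes, of which 44.1% were called in Npr1-/- and 50.3% in Npr1+/+ hearts. These shares therefore cannot be read as particular to ribosomal protein genes. Across the 86 genes the changes of the genotypes had a Pearson r of 0.97, and over all 14063 genes 0.83; genes are not independent replicates. The sign was the same in 67 of 86 (77.9%), beside 85.4% of all genes.

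No ribosomal protein gene was called between genotypes. In nulliparous hearts, 0 of 86 passed for Npr1-/- against Npr1+/+ (limma), beside 0.0996% of all genes (0.0711% higher and 0.0284% lower), and 5 had an unadjusted p under 0.05, all higher, among them Rpl15 (0.33), Rpl28 (0.27), Rps27l (0.21) and Rps3 (0.20), beside 1213 of 14063 genes. Without nulliparous Npr1-/- replicate 4, Rpl15 gave 0.14, Rpl28 0.19 and Rps27l 0.14. The median difference was 0.07, beside 0.05 over all genes, and was 0.01 without nulliparous Npr1+/+ replicate 3. In lactating hearts, 0 of 86 passed, beside 0.199% of all genes (0.064% higher and 0.135% lower), and only Rpl22l1 (-0.24, adjusted p = 0.521) had an unadjusted p under 0.05, beside 1285 of 14063 genes. The median was -0.07, beside 0.00 over all genes, with 10 of 86 genes (11.6%) above 0, beside 49.9% of all genes; these genes share arrays.

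The lactation change also passed no test of a difference between genotypes for any of the 86 genes, beside 0.0924% of all genes (0.0213% higher and 0.0711% lower), and 3 had an unadjusted p under 0.05, the smallest for Rps3 (-0.27, adjusted p = 0.673), beside 897 of 14063 genes. The difference in lactation change, Npr1-/- less Npr1+/+, was below 0 for 82 of 86 genes (95.3%, beside 61.1% of all genes), with a median of -0.13 beside -0.06. With quantile normalization it was below 0 for 46 of 86, with a median of -0.01, and these genes share arrays, so the count is a description. For Rpl15 it was -0.28 (95% interval -0.70 to 0.13), and -0.10 without nulliparous Npr1-/- replicate 4.

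The median deviation of the 86 genes from their means over the 16 arrays was 0.03, -0.06, -0.09 and -0.12 on the lactating Npr1-/- arrays and 0.07, -0.03, -0.03 and 0.01 on the lactating Npr1+/+ arrays. It was 0.18, 0.11, 0.00 and -0.04 on the nulliparous Npr1-/- and 0.10, 0.06, -0.14 and -0.02 on the nulliparous Npr1+/+ arrays. The group values were -0.06 ± 0.07, 0.00 ± 0.05, 0.06 ± 0.10 and 0.00 ± 0.11 (mean ± SD, n = 4 each), and all groups overlapped. Large-subunit and small-subunit medians lay within 0.1 of each other on every array.

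**Figure D5:**
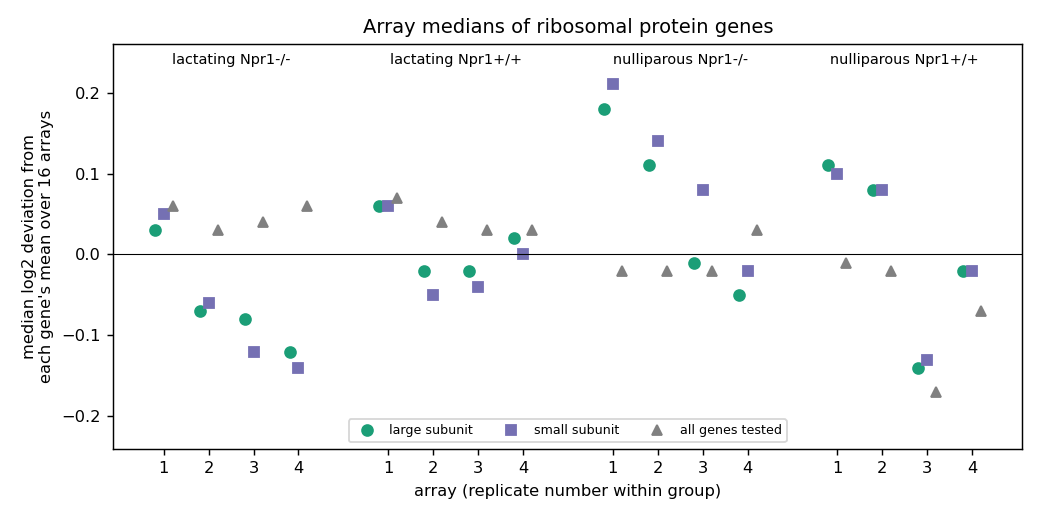
Median log2 deviation from each gene's mean over 16 arrays, for large-subunit genes (circles), small-subunit genes (squares) and all genes tested (triangles), on each array. The circles and squares stay close on every array, and they run from -0.14 to 0.06 on the lactating arrays and from -0.14 to 0.21 on the nulliparous ones.

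Most calls among genes that build the ribosome were higher in lactation. The counts that follow stand beside 25.5% of all genes called higher and 18.6% lower in Npr1-/- hearts (median 0.06), and 31.8% higher and 18.5% lower in Npr1+/+ hearts (median 0.10). Of 36 assembly factors tested, 17 were higher and 1 lower in lactating Npr1-/- hearts (median 0.21) and 19 were higher and 1 lower in lactating Npr1+/+ hearts (median 0.29); under the other 3 processings 16 to 24 were higher in Npr1-/- and 17 to 27 in Npr1+/+ hearts. Bop1 and Pes1, partners in the complex that matures the large-subunit RNA, rose by 0.60 and 0.78 in Npr1-/- and by 0.64 and 0.88 in Npr1+/+ hearts. Nob1, the nuclease that makes the final cut in small-subunit RNA, rose by 0.54 and 0.67. Of 14 RNA polymerase I and ribosomal DNA factors, 6 were higher and 2 lower in Npr1-/- and 7 higher and 2 lower in Npr1+/+ hearts, among them Ubtf (0.29 and 0.35), which holds the ribosomal DNA open. Of these factors, 4 to 8 were higher and 0 to 2 lower in Npr1-/- hearts under the other 3 processings. In Npr1+/+ hearts 6 to 8 were then higher and 0 to 3 lower.

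The 25 genes of mTOR, S6 kinase and Myc signalling were mixed, with 7 higher and 4 lower in Npr1-/- and 6 higher and 6 lower in Npr1+/+ hearts, beside 44.1% and 50.3% of all genes called in those genotypes. Of these 25, 7 to 10 were higher and 2 to 4 lower in Npr1-/- hearts under the other 3 processings. In Npr1+/+ hearts 5 to 9 were then higher and 3 to 8 lower. Myc rose by 0.83 ± 0.24 in Npr1-/- (adjusted p = 0.0125) and 1.87 ± 0.24 in Npr1+/+ hearts (adjusted p = 9.37e-05, limma), and the difference between these changes did not pass (adjusted p = 0.644). Pdcd4, a translation inhibitor that S6 kinase marks for breakdown, fell by 1.32 and 1.06 in those genotypes, and Rheb, the activator of mTOR, rose by 0.68 and 0.89. Of 77 mitochondrial ribosomal protein genes, 44 were higher and 3 lower in Npr1-/- and 63 higher and 1 lower in Npr1+/+ hearts, with medians of 0.30 and 0.56; under the other 3 processings 47 to 61 and 59 to 70 were higher. None of these lists held a gene called between genotypes.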

How the data were processed

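Cy3-labelled RNA of 16 mice was read on 1-colour arrays. The authors' spot intensities came from Feature Extraction (version 10.7.3.1 in the submitters' processing notes). Per the file headers, the deposited intensities are background-subtracted and detrended within each array; they were not scaled between arrays. The authors also deposited log2 values, whose scale, centring and direction were found by comparison: r was 0.964 to 0.999 over 13788 bright probes with log2 intensity less the 75th percentile and less the nulliparous Npr1+/+ mean. Column medians ran from -0.382 to 0.0318, and positive means higher than nulliparous Npr1+/+.

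Control spots and outlier spots were left out, spots of a probe averaged, and log2 taken less the array's 75th percentile. Of 28167 probes with a RefSeq accession, 27793 were named through the GRCm38.p6 table. A gene was its brightest probe and was kept if well above background on all 4 arrays of a group; 12707 of 14063 were so on all 16. None of the 86 tested members had a missing value. limma 3.58.1 (R 4.3.3) fitted 4 group means with 12 residual degrees of freedom, with Benjamini-Hochberg adjustment; scripts were tested on simulated data. The 4 arrays per group limit the precision. Alternatives covered background, scaling, filters, probe rule, variance, array weights, slide, replicate number, the deposited table and each array left out.

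Members with values are a set of paralogs, stalk proteins and common reference genes, plus, per comparison, up to 8 with the largest rise, up to 8 with the largest fall and the 4 with the smallest adjusted p; other genes are up to 4 per list with the smallest adjusted p. Members and lists were chosen with earlier results of these data known. Some genes counted here are not reported by name.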

Additional observations from a re-analysis of the deposited data

Results flagged for a closer look

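Among 51 ribosomal protein genes with named values and the median of all members, 208 groups of 4 arrays were examined for an array far from the other 3, and 14 values were found (6.7%). Chance flags about 1 in 20 groups.

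Nulliparous Npr1-/- replicate 4 accounted for 7 of the 14, each time on the side of the lactating Npr1-/- mean. Its levels were 7.10 for Rpl15 (other nulliparous Npr1-/- arrays 6.33 to 6.39) and 6.54 for Rpl28 (6.21 to 6.23), both above the others. They were 7.96 for Rpl14 (8.31 to 8.37), 8.42 for Rpl36 (8.86 to 8.92), 7.23 for Rps15 (7.73 to 7.82), 6.27 for Rps18 (6.45 to 6.48) and 8.56 for Rpsa (9.05 to 9.14), all below the others. The summed signal of macrophage markers on that array was 32.1, the highest of its group. Its part in these values was not tested.

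The other values lay on 6 arrays. Rpl10 was low on replicate 3 of the nulliparous Npr1-/- group, at 8.15 (8.44 to 8.48), and of the nulliparous Npr1+/+ group, at 8.12 (8.34 to 8.38). In lactating Npr1-/- hearts, Rpl22l1 stood at 5.04 (4.81 to 4.84) and Rps27l at 5.75 (5.68 to 5.69). In lactating Npr1+/+ hearts, Rpl30 stood at 6.82 (6.94 to 6.95), Rps21 at 4.06 (4.23 to 4.26) and Rpl36a at 5.42 (all others 5.32).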

How the results depend on the processing

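The count called in lactating against nulliparous hearts was 38 in Npr1-/- and 28 in Npr1+/+ mice. With array weights it was 61 and 46, and within slide 2 alone it was 0 and 0, where 0 and 86 of all genes were called. Within slide 1 it was 33 and 22. Each slide held only 2 arrays per group, and slide 2 held nulliparous Npr1-/- replicate 4. A count of 0 there therefore does not show that the changes were absent. In Npr1-/- hearts the count called was also 21 with arrays centred on their medians, 23 with the mean of the probes and 25 with only the compared groups fitted. Leaving out 1 array gave 24 to 49 in Npr1-/- hearts, the lowest without nulliparous Npr1-/- replicate 2 and the highest without its replicate 4, and 20 to 31 in Npr1+/+ hearts. The median change of the members, -0.14 in Npr1-/- and -0.01 in Npr1+/+ hearts, was -0.02 and 0.09 with normexp and 0.04 and 0.18 with median centring, and the median difference between these changes, -0.13, was -0.01 with quantile normalization. With the mean of the probes, 4 genes turned against the brightest probe: Rpl13a (0.09 in Npr1-/- and 0.16 in Npr1+/+ hearts), Rpl22 (0.09 and 0.28), Rps18 (0.22 and 0.30) and Rpl14 (0.25 in Npr1+/+ hearts). The causes were not tested. Every alternative gave 0 calls for genotype and for the difference between lactation changes.

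Correlations between arrays of different groups were also taken after each gene's group mean was subtracted. Same-numbered arrays then correlated at -0.04 to 0.18, and 8 of 16 arrays correlated best with their own number. The count to be expected without pairing was not worked out. Each replicate number also had the same slide and row in every group. These correlations therefore cannot tell paired samples from a shared array position. With the replicate number as a block the counts were 44 in Npr1-/- and 29 in Npr1+/+ hearts, and with slide as a block 45 and 30.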
